A study of Mus musculus with 321 samples.

Results

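The regions described are the stretches of the mouse genome at which NIH3T3 fibroblasts carried H3K27me3 and H3K9me3 at once. They were found as the bases covered by an island, a run of enriched 200 bp windows, in all 4 histone ChIP-seq libraries, 2 for each mark, and overlaps of at least 1 kb were kept, so members were chosen by the ChIP signal itself. Of 4107 such overlaps, 3136 reached 1 kb and are called segments here. The values of both marks therefore describe the segments and test nothing. NIH3T3 is an established embryonic fibroblast line of NIH/Swiss mice, used at passages 8 to 12, and the labels of the 4 histone libraries used name no retrovirus. Histone libraries of Tcf-1 RV cells were not analysed here. ATAC-seq, which cuts open chromatin, was made of NIH3T3 cells with an empty retrovirus (Empty RV, 4 libraries) or with one that expresses Tcf-1, a T cell transcription factor encoded by Tcf7 (Tcf-1 RV, 4 libraries). By their names, replicates 1 and 2 of each NIH3T3 arm carry a day 2 tag and replicates 3 and 4 a day 4 tag. ATAC-seq was also made of CD4+CD8+ double-positive (DP) T cells sorted from mice of the strain labelled C56BL/6 (WT, 2 libraries) and from mice labelled TCF-1-/- deltaVII (Tcf-1 KO, 2 libraries). The labels give no age, and no histone map of DP T cells was used, so every position relative to a mark is that of the fibroblast. Tcf-1 binding came from 1 pooled list of 40562 summits of Tcf-1 RV cells, whose name carries the day 2 tag. A control without Tcf-1 for that list was not analysed here.

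H3K27me3 is written by the Polycomb repressive complex PRC2 through Ezh1 or Ezh2 and lies over silent developmental genes, often at CpG-rich promoters. H3K9me3 is written by Suv39h1, Suv39h2 and Setdb1, is bound by HP1 proteins, and marks repeats, satellite DNA and clusters of zinc finger and receptor genes. In differentiated cells they usually occupy separate domains. ChIP-seq of a cell population does not tell whether both marks sat on the same chromosome copy or in different cells.

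The promoters inside the segments ranged from CpG-rich to almost free of CpG, and 5 of them, picked for their CpG content, show that range. Each line gives the 250 bases before and the 50 after a transcription start, 5′ to 3′, from RefSeq on GRCm38.p6, with every CG in capitals. Lhx1, a homeobox factor of early head and kidney development, Hoxa10, a factor of limb and trunk patterning, and Myb, a factor of blood progenitors, have 31, 21 and 40 CG. Gstt4, of the theta glutathione transferases, has 1 and Lrg1, a secreted leucine-rich glycoprotein, has 2. All 5 windows lie on the minus strand, at chr11:84525485-84525784, chr6:52234890-52235189, chr10:21160935-21161234, chr10:75822494-75822793 and chr17:56121897-56122196.
Lhx1: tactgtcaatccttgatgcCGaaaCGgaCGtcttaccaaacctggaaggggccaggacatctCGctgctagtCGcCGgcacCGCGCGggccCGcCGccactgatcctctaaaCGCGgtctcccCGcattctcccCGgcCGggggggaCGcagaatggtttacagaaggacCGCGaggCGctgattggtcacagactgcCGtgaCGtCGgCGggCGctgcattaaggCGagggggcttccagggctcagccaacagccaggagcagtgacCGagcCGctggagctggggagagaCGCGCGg
Hoxa10: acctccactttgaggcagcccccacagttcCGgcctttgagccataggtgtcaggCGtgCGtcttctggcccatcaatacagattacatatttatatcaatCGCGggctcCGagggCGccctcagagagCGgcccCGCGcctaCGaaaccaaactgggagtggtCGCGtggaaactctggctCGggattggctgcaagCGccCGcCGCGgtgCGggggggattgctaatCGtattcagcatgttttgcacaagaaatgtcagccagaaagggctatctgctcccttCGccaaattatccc
Myb: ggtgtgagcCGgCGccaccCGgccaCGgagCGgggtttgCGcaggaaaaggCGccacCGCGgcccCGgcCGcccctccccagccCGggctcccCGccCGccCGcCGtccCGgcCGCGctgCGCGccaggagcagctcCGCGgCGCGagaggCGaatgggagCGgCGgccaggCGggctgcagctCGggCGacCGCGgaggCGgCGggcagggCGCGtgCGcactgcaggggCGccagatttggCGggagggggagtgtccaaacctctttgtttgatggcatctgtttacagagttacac
Gstt4: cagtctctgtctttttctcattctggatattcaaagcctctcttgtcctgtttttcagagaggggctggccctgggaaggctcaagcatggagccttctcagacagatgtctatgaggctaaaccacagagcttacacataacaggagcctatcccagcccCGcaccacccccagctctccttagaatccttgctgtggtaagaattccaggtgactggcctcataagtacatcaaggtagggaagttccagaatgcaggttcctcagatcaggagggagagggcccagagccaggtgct
Lrg1: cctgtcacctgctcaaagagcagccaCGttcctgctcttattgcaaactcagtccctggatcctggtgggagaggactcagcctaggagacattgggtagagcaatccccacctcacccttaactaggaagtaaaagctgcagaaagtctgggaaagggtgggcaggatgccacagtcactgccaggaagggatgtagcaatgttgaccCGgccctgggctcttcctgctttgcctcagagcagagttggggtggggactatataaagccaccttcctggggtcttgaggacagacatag

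The segments were short and covered little of either mark. They had a median length of 2400 bp, with 25% at or under 1600 bp, 25% at or over 3800 bp and a maximum of 27600 bp. Lengths came in steps of 200 bp, the window of the island caller. Just outside the limit lay overlaps of 800 bp (5.60% of all 4107), and just inside it segments of 1000 bp (5.41%). There were 430 segments of at least 5 kb (13.7%) and 42 of at least 10 kb. Together the segments held 9.45 Mb. All overlaps of any length held 9.94 Mb, which was 4.51% of the 220.5 Mb of H3K27me3 and 2.86% of the 347.8 Mb of H3K9me3. Over the chromosomes, measured to the last annotated gene, H3K9me3 covered 12.8% and H3K27me3 8.10%, so each mark held a smaller share of the other mark's bases than of the chromosomes as a whole.

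By the 1 kb on each side, most segments lay where a domain of one mark met a domain of the other or within a domain of H3K9me3. In 1394 of 3136 (44.5%, Wilson 95% interval 42.7 to 46.2) the 1 kb on one side was mainly H3K27me3 and that on the other mainly H3K9me3, here called a border. A further 795 (25.4%) had H3K9me3 on both sides and 288 (9.18%) H3K27me3 on both sides. H3K9me3 was on 1 side only at 412, H3K27me3 on 1 side only at 6.66%, and neither side was marked at 38. The domains at a border were of like size, with a median of 6 kb for H3K27me3 and 6.8 kb for H3K9me3. Segments within H3K9me3 sat in domains with a median of 11.2 kb. Their H3K27me3 stretch was about as long as the segment (median 2.4 kb), which follows from how nesting is defined. Those within H3K27me3 were longer (median 3600 bp, against 2200 bp at borders) and sat in domains with a median of 16.3 kb. Read over 200 bp on each side the borders numbered 1654. Read over 5 kb the order was another. Borders numbered 642 and segments with both marks on a side 619. H3K9me3 was on 1 side only at 522 and H3K27me3 on 1 side only at 509. Segments within H3K27me3 came next with 452 (14.4%). Neither side was marked at 6.63%, and 5.87% lay within H3K9me3. Of the 1394 borders at 1 kb, 503 stayed borders at 5 kb and 298 met both marks on a side. An island of H3K27me3 ended exactly at 61.4% of the 6272 segment edges and one of H3K9me3 at 41.3%. By construction every edge is an island end of at least 1 of the marks. The intervals on these shares cover counting error only, and segments close to each other are not independent: 1407 (44.9%) had another segment within 10 kb.

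**Figure D1:**
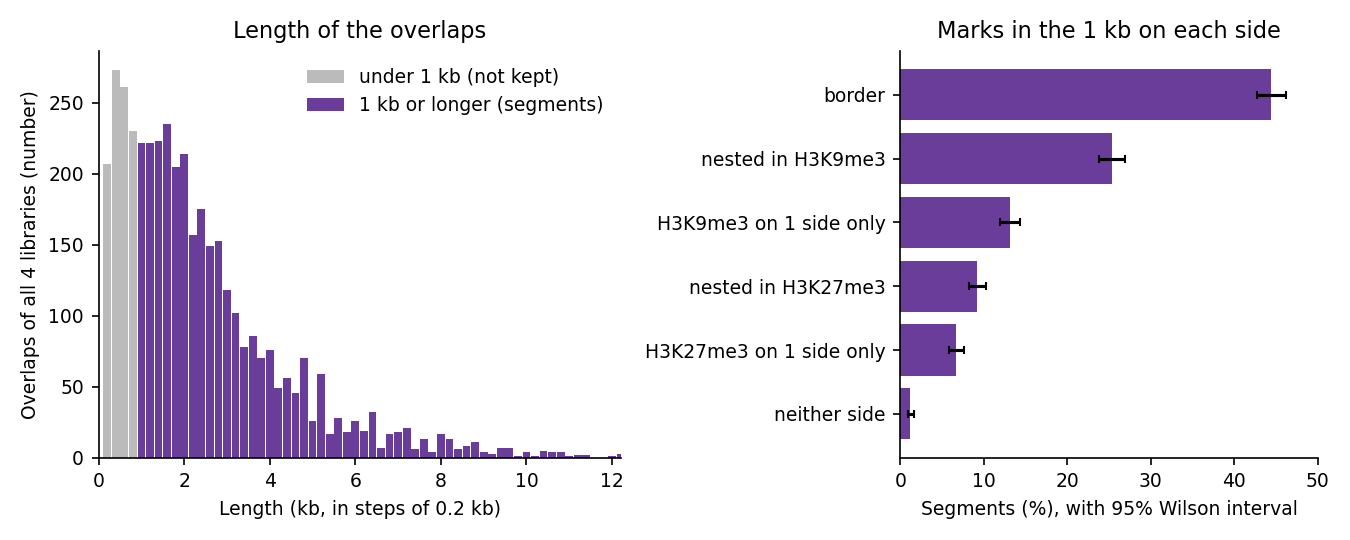
Left, number of overlaps of all 4 histone libraries at each length in kb; grey bars are those under 1 kb and purple bars the 3136 segments, drawn up to 12 kb (the longest was 27600 bp). Right, share of segments by the marks in the 1 kb on each side, with Wilson 95% intervals; 44.5% lay at a border and 25.4% within H3K9me3.

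The islands behind the segments were of ordinary strength. The deposited ratio, ChIP over control reads after the caller's scaling, had a median of 2.03 and 2.02 over the segments in the H3K27me3 replicates and of 2.05 and 2.00 in those of H3K9me3. Ratios of the replicates of a mark correlated across segments (Spearman rho 0.741 for H3K27me3 and 0.697 for H3K9me3, over 3136 segments that share islands). Islands with a segment had medians of 2.02 (H3K27me3 replicate 1) and 2.11 (H3K9me3 replicate 1), against 2.02 and 2.14 for those without. Both marks reached a ratio of 2 in all 4 libraries at 558 segments (17.8%) and a ratio of 3 at 9.

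Those 9 segments of highest lowest ratio, singled out after their values were seen, included developmental regulators. At the gene of Zic2, a zinc finger factor of forebrain development, the ratios of chr14:122477401-122479200 were 4.23 and 3.93 for H3K27me3 and 4.90 and 5.02 for H3K9me3. At Sim2, a factor of neural and muscle development, chr16:94086001-94087600 had 3.70 and 3.90, then 6.39 and 6.17. At Lbx1, a homeobox factor of muscle precursors and spinal cord, chr19:45231201-45236800 had 3.40 and 3.30, then 3.67 and 3.53, inside 64 kb of H3K27me3. C2cd4a was the fourth gene with a segment over it, and the nearest genes of the others were Dmbt1, Robo3, H2bl1 and Cux2, with no protein-coding gene within 50 kb of the ninth. A ratio is that of the whole island that holds the segment, which can be much longer than the segment.

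Segments were unevenly spread over the chromosomes. Chromosomes 1, 6, 11, 17 and 19 held 1529 of them (48.8%), and chromosomes 9, 13, 14, 18 and X held 70 (2.23%). Per 10 Mb there were 34.4 on chromosome 19 and 31.3 on chromosome 17, against 0.997 on chromosome 13, and 1 segment on X. Control reads in the islands also differed. Per kb of H3K27me3 replicate 1 islands they numbered 41.9 on chromosome 19 and 41.3 on 17, but 27.1 on 13 and 20.5 on X. Across 20 chromosomes, with Y left out, the number of segments per 10 Mb rose with control reads per kb (Spearman rho 0.947 for H3K27me3 replicate 1 and 0.941 for H3K9me3 replicate 1, a description over chromosomes that share libraries). Chromosome Y went the other way, with 0 segments. Its control reads per kb of islands were 335 in H3K27me3 replicate 1 and 44.6 in H3K9me3 replicate 1. At 2313 of 2313 islands with equal coordinates in a pair of libraries, over 6 pairs, the control count was equal. The part of the control in the number of segments was not tested.

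**Figure D2:**
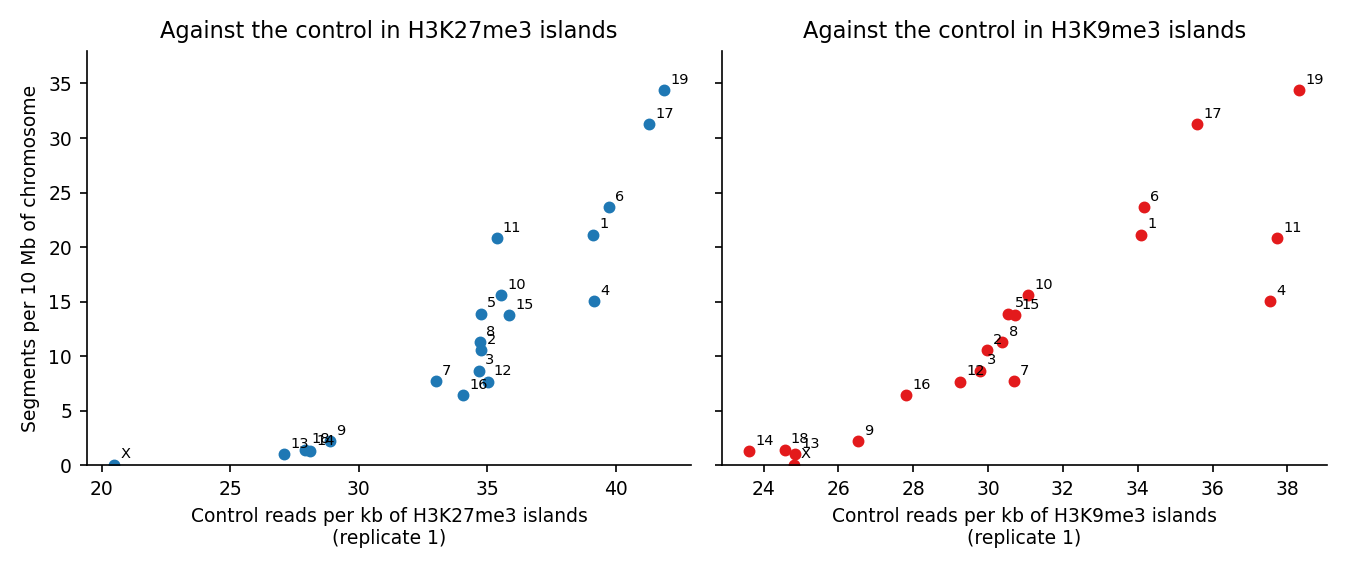
Each point is 1 of 20 chromosomes (labelled), with segments per 10 Mb on the y axis and control reads per kb of islands on the x axis, in H3K27me3 replicate 1 (left) and H3K9me3 replicate 1 (right). Chromosome Y is not drawn. Of those drawn, chromosome 19 has the most of both in either panel, and 13, 14, 18 and X have the fewest control reads and under 1.5 segments per 10 Mb.

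A few segments had very high control reads. The segment chr14:19415401-19420000 had 1622 control reads per kb of its H3K27me3 island, chr17:39842801-39849000 had 1423 and chr11:3100001-3105000 had 1299, against a median of 37.7 over the islands with a segment. At chr9:3014001-3033200, 19200 bp long and inside 72.8 kb of H3K9me3, there were 486. The main ATAC ratios, shares of peaks and counts of merged regions below are also given without the first of these. The control density was above the 99th percentile of the islands of at least 1 library at 76 segments in all.

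The 10 longest segments lay mostly outside genes. The longest, chr16:32542401-32570000, filled a whole H3K9me3 domain of 27.6 kb inside 87.8 kb of H3K27me3, 35187 bp from Zdhhc19, a palmitoyltransferase gene. Its ratios were 2.55 and 2.5 for H3K27me3 and 1.31 and 1.22 for H3K9me3, so H3K9me3 was low there in both replicates. The segment chr17:31710001-31726800 (16800 bp), 28271 bp from the lens crystallin gene Cryaa, had the same form, with 1.86 and 1.89, then 1.26 and 1.73. At chr12:109304801-109321200 (16400 bp), with no protein-coding gene within 50 kb, both marks were near or above 2 (2.52 and 2.26, then 2.45 and 2.04), and 1 Tcf-1 summit lay in it. At chr4:63598601-63614400 (15800 bp) the segment overlapped 79.7% of Gm11213 and a part of Tex48. The segment chr6:119154801-119169200 (14400 bp) lay within Cacna1c, which encodes an L-type calcium channel subunit, and held 1 summit. The remaining 4, beside the chromosome 9 segment above, had Habp2, Nolc1, Susd6 and Pakap as their nearest genes, 10458 to 37909 bp away.

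Genes held segments mainly in their bodies. Protein-coding genes lay over 721 of 3136 segments, a further 1825 (58.2%) had one within 50 kb, and 590 (18.8%) had none. Of 21887 protein-coding genes, 536 overlapped a segment (2.45%) and 0.649% had a start or end in one. Long genes overlapped more often: of 4 equal groups by gene length, 5.12% of the longest (median 90.6 kb) did, against 0.676% of the shortest. Gene ends showed no such order (0.640% and 0.585%).

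The 15 genes with the most segment bases were led by Osbp2, an oxysterol-binding protein gene with 25600 bp in 6 segments. Abca17, a lipid transporter gene, had 24800 bp in 7 segments (28.2%), and Dnah6, an axonemal dynein gene, 23000 bp in 7 (11.2%). Cacna1c followed with 21600 bp, Pkd2l1, of the polycystin channels, with 19000 bp, Slit1, an axon guidance ligand, with 18600 bp, and Tll2, a tolloid-like protease, with 17800 bp. The other 8 were Gm884, Ankrd36, Pcsk6, Bcl2l14, Rbm20, Tmem217, Dlgap2 and Afap1l2, with 12600 to 16000 bp. The largest share of a gene among these was that of Tmem217, at 42.4%. In Osbp2 the largest segment had H3K9me3 on 1 side only, while in Cacna1c, Pkd2l1, Slit1 and Tll2 it lay within H3K27me3. Pkd2l1, Slit1, Tll2, Rbm20 and Afap1l2 are all on chromosome 19, where segments were densest.

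Of 23 gene lists, 11 had a member with an end in a segment. Against 0.649% of all protein-coding genes, the developmental transcription factors had 5 of 89 (5.62%) and the Hox cluster genes 3 of 39 (7.69%). T cell genes had 2 of 54 (3.70%), germline genes 2 of 62 (3.23%), Polycomb machinery 1 of 31 (3.23%) and potassium channels 2 of 94 (2.13%). The lists had been drawn up with results of these files known, and neighbouring Hox genes share a segment, so these shares describe the lists only. Near the background were cytochrome P450 genes (1.27%), keratins and keratin-associated proteins (0.893%), solute carriers (0.867%) and zinc finger genes (0.857%), and olfactory receptors (3 of 1125, 0.267%) were under it. The 12 lists with no end in a segment were type 1 (of 230 genes) and type 2 vomeronasal receptors, clustered protocadherins (57), histone cluster genes (67), serpins (63), kallikreins (27), defensins (71), collagens (44), X-linked reproductive clusters (64), imprinted genes (62), fibroblast genes (32) and H3K9 methylation machinery (23). Some of these lists did overlap segments in gene bodies: 6 collagens (13.6%), 5 imprinted genes (8.06%) and 1 kallikrein (3.70%), against 2.45% of all protein-coding genes. The others of the 12 had 0 overlapping genes.

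The single marks were spread over the lists in another way. H3K9me3-only stretches, which lie in both H3K9me3 libraries and in no H3K27me3 island, held an end of 37 of 57 clustered protocadherins (64.9%), of 48 type 2 vomeronasal receptors (39% of that list), of 34.5% of zinc finger genes and of 17 of 89 developmental transcription factors, against 8.33% of all genes. H3K27me3-only stretches held an end of 56.4% of Hox, 50.6% of developmental transcription factor and 59.3% of T cell genes, against 15.5% of all genes. Of 32 fibroblast genes, usually active in such cells, H3K27me3-only stretches held 0 and H3K9me3-only stretches 3 (9.38%).

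Developmental factors in segments differed in the marks beside them. Lhx1 had ratios of 3.92 and 3.97 for H3K27me3, the highest of the 5 genes of its list, and of 2.30 and 2.60 for H3K9me3, in a segment of 7600 bp (chr11:84520001-84527600) inside 24.2 kb of H3K27me3. Emx1, a factor of the cerebral cortex, had 3.44 and 3.30, then 2.28 and 1.34, in 4000 bp inside 49.4 kb of H3K27me3. Gsc, a factor of the embryonic organizer, and Otx1, a forebrain factor, lay in segments of 2000 and 3400 bp with H3K9me3 on 1 side only, and Sox17, an endoderm factor, in 3400 bp at a border with ratios from 1.62 to 1.88. H3K9me3 differed between replicates at Otx1 (2.18 and 3.17), as at Emx1.

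At the Hoxa cluster 2 segments of 9600 and 7000 bp, both at a border, held Hoxa9 and Hoxa10, and Hoxa11. H3K27me3 reached 3.31 and 3.74 in those 2, and H3K9me3 1.63 and 1.86 over Hoxa9 and Hoxa10 and 1.97 and 1.66 over Hoxa11. A further segment of 5200 bp at a border, chr6:52261201-52266400, held the start of Hottip, a lncRNA gene of the cluster, with ratios of 3.27 and 2.91 for H3K27me3 and 3.38 and 3.90 for H3K9me3. The segment chr6:52227201-52236800 also held the microRNA gene Mir196b, whose family targets Hox transcripts. The other microRNA gene in a segment was Mir7236, at chr11:121383601-121390000, inside the segment over Rab40b. Their mature forms follow from RefSeq, 5′ to 3′, with the seed (bases 2 to 8) in capitals, and no 2 of the 4 share a seed.
mmu-miR-196b-5p: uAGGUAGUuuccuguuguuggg
mmu-miR-196b-3p: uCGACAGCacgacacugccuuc
mmu-miR-7236-5p: cCUAAAACugugugguccaaugcc
mmu-miR-7236-3p: uUGGACCGcacagauuuagacc

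Among genes of other roles, Myb had ratios of 2.42 and 2.75 for H3K27me3 and 2.70 and 2.29 for H3K9me3 in 5600 bp inside H3K27me3. Ikzf3, which encodes the lymphocyte factor Aiolos, had 2.87 and 2.99, then 3.29 and 1.87, in 1600 bp. Epop, a partner of Polycomb complexes, had 2.43 and 2.41, then 1.75 and 1.85, in 4400 bp inside H3K27me3. Zinc finger genes were mixed: Zfp286 lay within 29.2 kb of H3K9me3 with 3.40 and 3.11 for that mark, Zfp800 within H3K27me3 with 2.27 and 1.22 for H3K9me3, and Zfp879 and Zfp3 at borders. Among the germline genes, Tdrd9, a Tudor domain helicase of transposon silencing, lay at a border, and Dmrtb1, a factor of spermatogonia, within 31.6 kb of H3K27me3. Kcnmb4 and Kcnk6 of the potassium channels and Slc27a2 of the solute carriers lay at borders, as did Cyp4f39 and Krtap12-1. Slc12a5 had H3K9me3 on 1 side and Slc9a3r2 neither mark beside it. The olfactory receptors were Olfr1358, Olfr212 and Olfr1419.

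Promoters in segments had more CpG than promoters under either mark alone. The start lay in a segment for 160 of 32851 promoter windows (0.487%), from 84 protein-coding and 54 lncRNA genes, in 3.92% of segments. These windows had a median of 10 CG, against 5 under H3K27me3 only, 4 under H3K9me3 only and 7 over all promoters. The median CpG observed over expected was 0.441 (quartiles 0.189 and 0.708), against 0.284, 0.274 and 0.384. A value of at least 0.6 was reached by 61 of 160 (38.1%), close to the 35.8% of all promoters and above the 18.4% and 25.4% of the single-mark classes. With 1 window per gene the shares were 39.9%, 36.5%, 18.1% and 24.6%. These shares are descriptions, since windows of 1 gene or segment overlap.

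CpG content differed with the neighbouring mark. Of genes with a start in a segment nested in H3K9me3, 2 of 21 had a value of at least 0.6 (median 0.189). At borders it was 29 of 66 (median 0.545), within H3K27me3 10 of 20 (0.583), and with H3K27me3 on 1 side only 9 of 19 (0.569). H3K9me3 on 1 side only gave 3 of 9 and neither side 2 of 3. Lhx1 and Myb, nested in H3K27me3, and Lrg1, nested in H3K9me3, fall at opposite ends of that range, while Gstt4 was CpG-poor at a border.

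**Figure D3:**
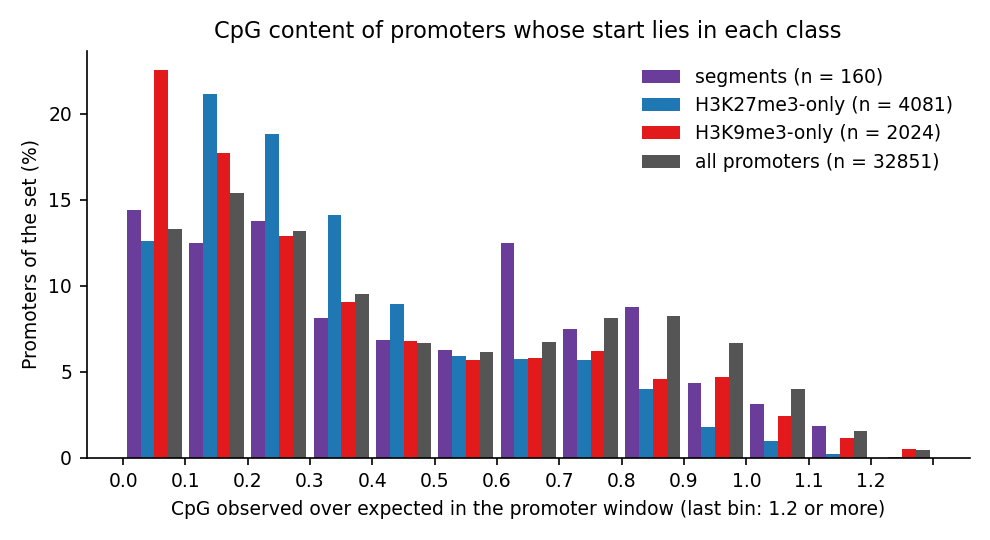
Share of promoter windows (y axis, %) by CpG observed over expected (x axis, bins of 0.1), for starts in segments (160 windows), in H3K27me3-only (4081) and H3K9me3-only stretches (2024) and for all 32851. From 0.6 up lie 38.1% of windows in segments, 35.8% of all, and 18.4% and 25.4% of the single-mark classes.

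Letters of the kind Tcf-1 binds were found at a like share in promoters of segments and in all promoters. CTTTGAT or CTTTGAA, on either strand, stood in 14 of 160 windows (8.75%), against 8.65% of all 32851, 10.2% under H3K27me3 only and 9.19% under H3K9me3 only. CTTTGAT stood in 7 and CTTTGAA in 9, 2 windows holding both. Flt3, a receptor of blood progenitors, and Il16 held CTTTGAT, and Hoxa11, Zfp800 and Gstt4 held CTTTGAA.

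Open chromatin was rare in the segments in fibroblasts. Empty RV replicates 1 to 4 had 3, 12, 25 and 47 ATAC peaks with their midpoint in a segment, and Tcf-1 RV replicates 1 to 4 had 30, 30, 25 and 56. Their full lists held 22778 to 62639 peaks, and the longest list of each arm had the most peaks in segments. Per Mb of segments this was 0.317 to 4.97 peaks in Empty RV and 2.65 to 5.93 in Tcf-1 RV. H3K27me3-only stretches (40941, 198.8 Mb) had 0.518 to 7.47 and 2.39 to 9.72 peaks per Mb, and H3K9me3-only stretches (23444, 330.9 Mb) had 3.74 to 9.83 and 5.49 to 10.2. The segments were thus below H3K9me3-only in 8 of 8 libraries and below H3K27me3-only in 7, with Tcf-1 RV replicate 3 as the exception.

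Within libraries the density in segments was 0.351 times that of H3K9me3-only (geometric mean, 0.0990 to 0.587; log2 ratio -1.51 ± 0.84 SD, n = 8, exact two-sided sign-flip p = 0.00781). Against H3K27me3-only it was 0.738 times (0.611 to 1.13; log2 ratio -0.44 ± 0.29 SD, n = 8, exact p = 0.0156). Both had an adjusted exact p of 0.0156 over the 2 ratios, with 0.5 peaks added to every count. Same-numbered libraries of the arms deviated together, as did differently numbered ones of the same day tag. With the 4 numbers as the units the ratios were the same and neither passed (exact sign-flip p = 0.125 for both, the smallest possible). The ratio to H3K9me3-only was lowest in the shortest list (0.0990 in Empty RV replicate 1) and highest in the longest (0.587 in Tcf-1 RV replicate 4). The part of list length in it was not tested. With single-mark stretches capped at the 95th percentile of segment length, the ratio to H3K27me3-only was 0.930 and did not pass (exact p = 0.359), and that to H3K9me3-only was 0.129. Without a minimum length, the ratio to H3K27me3-only also did not pass (0.862, exact p = 0.117), and with islands of a ratio of at least 2 that to H3K9me3-only was 0.197.

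The chr14:19415401-19420000 segment of highest control density held 5 open regions, more than any other segment described here. Without it the ratios were 0.663 and 0.316 (adjusted exact p = 0.00781 for both). Without the 76 segments of highest control density they were 0.547 and 0.260, with the same p.

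**Figure D4:**
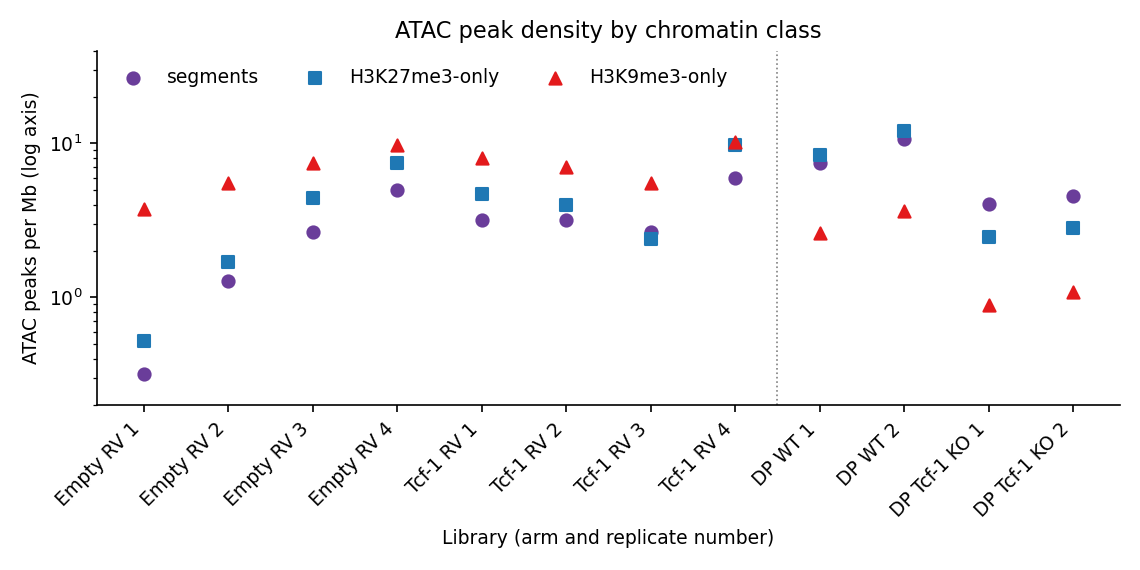
ATAC peaks per Mb (log axis) in segments (circles), H3K27me3-only (squares) and H3K9me3-only stretches (triangles) in each of 12 libraries, named by arm and replicate number. Circles lie under triangles in all 8 NIH3T3 libraries and over them in all 4 DP libraries.

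The difference between Tcf-1 RV and Empty RV was not larger than the spread between libraries by the test used. Peaks in segments were 0.0132%, 0.0347%, 0.0534% and 0.0810% of the lists of Empty RV replicates 1 to 4 and 0.0630%, 0.0689%, 0.0683% and 0.0894% of those of Tcf-1 RV. The arms overlap through Empty RV replicate 4. Means were 0.0456% ± 0.0288 and 0.0724% ± 0.0116 (SD, n = 4 per arm), which differ by 0.0269 percentage points (two-sided exact permutation p = 0.171, or 0.33 when adjusted over the 2 comparisons of arms; 0.0286 is the smallest possible). Same-numbered libraries deviated together, as did differently numbered ones of the same day tag. In each of the 4 same-numbered pairs Tcf-1 RV was the higher, with gaps of 0.0084 to 0.0498 points. The exact sign-flip test over pairs gave p = 0.125, which is its lowest value for 4 pairs. Without Empty RV replicate 4 the difference was 0.0387 points with an exact permutation p of 0.0286, without Empty RV replicate 1 it was 0.0161 points (exact permutation p = 0.286), without the chromosome 14 segment 0.0246 points (exact p = 0.171), and with the 22778 widest peaks of each library it was 0.0143 points (exact p = 0.114). It was 0.0420 points among libraries whose names carry a day 2 tag and 0.0117 among those with a day 4 tag (exact permutation p = 0.33 and 0.667, with 2 libraries in each arm).

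Merged over the 8 libraries, 85 open regions lay in 77 segments. Most were seen in few libraries: 37 of 85 (43.5%) were called in 1 and 3 (3.53%) in all 8, against 21.2% and 24% of all 77882 regions. Regions in H3K27me3-only stretches were much like them (37.9% and 2.55%), and those in H3K9me3-only stretches were nearer to all regions (23.6% and 19.9%). Gained regions are those that every Tcf-1 RV library held and that were absent from Empty RV, and lost regions the reverse. Of the 85, 3 were gained, against 1.08% of all regions, and 0 were lost, against 0.110% of all. Without the chromosome 14 segment there were 80 regions, 36 in 1 library, 3 in all 8 and the same 3 gained. No test was made of so few regions.

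The 3 gained regions were chr6:91607526-91607956, chr10:39208830-39209230 and chr11:30720767-30721160. The first lay in a segment of 8600 bp with H3K9me3 on 1 side only and no protein-coding gene within 50 kb, and the others in segments of 1800 and 2400 bp nested in H3K9me3, 33425 bp from Ccn6, a matricellular protein gene, and 49375 bp from Psme4, a proteasome activator gene. Tcf-1 summits lay in the first and second, with scores of 56.8 and 57.3, and not in the third. Called within the day tags, over regions held by a library of that tag, 11 of 40 were gained for day 2 (27.5%, against 17.7% of all such regions) and 6 of 70 for day 4 (8.57%, against 2.11%). For day 2 the Empty RV lists held 22778 and 34601 peaks and the Tcf-1 RV lists 47623 and 43527. For day 4 they held 46819 and 58026, against 36583 and 62639. The part of list length in these shares was not tested. Regions in all 8 libraries lay at chr5:114567101-114567607 in Fam222a, at chr8:26824396-26824999, where a Tcf-1 summit had a score of 92.6, and at chr19:25461814-25462427, 27303 bp from Kank1, a regulator of actin. The base of that chromosome 8 summit itself lay in a peak of 1 Empty RV library and of 4 Tcf-1 RV libraries.

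**Figure D5:**
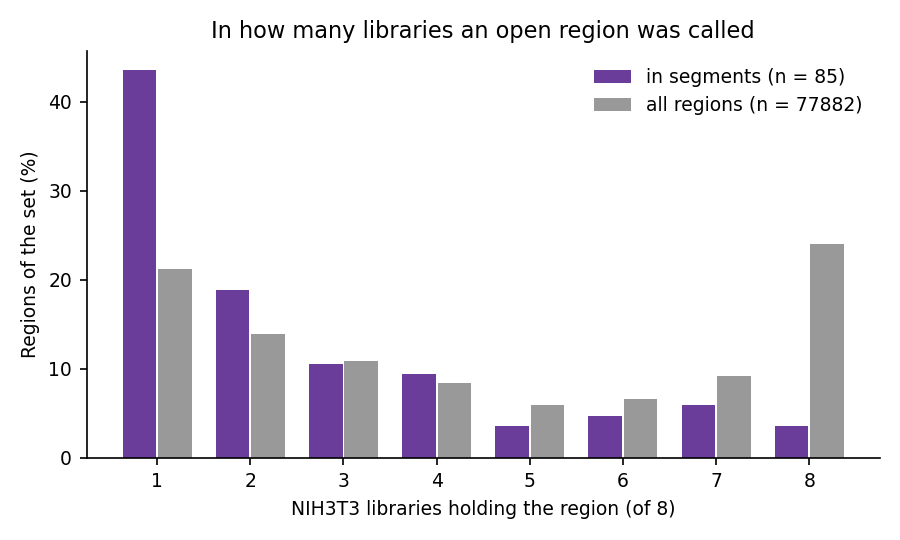
Share of open regions (y axis, %) by the number of NIH3T3 libraries, of 8, that held them (x axis), for the 85 regions in segments and for all 77882. In segments 43.5% were held by 1 library and 3.53% by all 8. Regions in H3K27me3-only stretches, not drawn, had 37.9% and 2.55%.

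In DP T cells the same stretches of the genome were open more often than H3K9me3-only stretches. Of the lists of DP WT replicates 1 and 2, 0.305% and 0.326% lay in segments (7.51 and 10.7 peaks per Mb), and of those of Tcf-1 KO 0.340% and 0.352% (4.02 and 4.55 per Mb). The KO lists were shorter, 11171 and 12209 peaks against 23249 and 30985. Shares were 0.316% ± 0.0145 in WT and 0.346% ± 0.00851 in KO (SD, n = 2 per arm, exact permutation p = 0.33, the smallest possible), and with the 11171 widest peaks of each library they differed by 0.0671 points. Without the chromosome 14 segment the difference was 0.00415 points (exact permutation p = 0.667). Peaks per Mb were 3.59 times those in H3K9me3-only (2.91 to 4.53), above 1 in 4 of 4 libraries (exact sign-flip p = 0.125, the smallest possible; adjusted 0.25). Against H3K27me3-only they were 0.904 and 0.890 times in WT and 1.66 and 1.62 times in KO (exact sign-flip p = 0.5 over the 4). Without the chromosome 14 segment these were 0.828, 0.846, 1.40 and 1.43, and the mean ratio to H3K9me3-only 3.22. The ratio to H3K9me3-only differed between the 4 DP and 8 NIH3T3 libraries (log2 difference 3.35 with or without that segment, exact permutation p = 0.00202, the smallest possible), and in WT libraries alone by 3.06 (exact p = 0.0222, the smallest possible). That to H3K27me3-only differed by 0.72 (exact p = 0.0101), but both WT libraries lay within the NIH3T3 range, and WT alone differed by 0.28 (exact permutation p = 0.222), KO alone by 1.15 (exact p = 0.0222). These libraries also differ in cell type, strain and list length, which cannot be told apart.

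DP regions in segments lay within 1 kb of a listed start at 32.7%, close to the 34.4% of all DP regions and above the 22% of those in H3K27me3-only and the 24.8% of those in H3K9me3-only stretches. Of the segments with a listed start, 27 held a DP region and 6 a NIH3T3 region, while over all 3136 segments 93 and 77 did, and 11 held both. Without segments that hold a listed start, in all 3 classes, the DP ratio to H3K9me3-only was 3.58 and that to H3K27me3-only 1.03. Of the DP regions in segments, 65 were in both WT libraries. In neither KO library were 24 of these (36.9%, Wilson 26.2 to 49.1), against 45.7% of all such regions and 62.2% and 60.2% of those in H3K27me3-only and H3K9me3-only stretches. Both KO libraries held 29 (44.6%), against 42.1% of all, and 0 were gained in the KO, against 0.142% of all. Without the chromosome 14 segment, 24 of 60 were lost and 25 kept.

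Within 1 kb of a listed start 6 of 27 regions were lost (22.2%), and farther from any listed start 18 of 37 (48.6%), against 17.1% and 64.8% over all DP regions in both WT libraries. The difference was not tested, and the last of the 65 had no start to measure from. The list of starts is not complete, so some regions counted as farther may lie near a start. A DP region in the segment over Sox17, a gene with an end there, was 98316 bp from the nearest listed start. Lost regions near starts lay at Flt3, Rab40b, Zfp879, Prlhr, Fam222a and Gm51803, named after their values were seen. Gm51803 is a lncRNA gene whose start lies in a segment that Cdh23 overlaps. Regions at Il16, a cytokine gene, Bcl2l14, Frmd5, Kcnmb4, Bdh1 and Slc27a2 were held by all 4 DP libraries. The region at the Myb start was held by both WT and 1 of the 2 KO libraries, and that at Hhex, a factor of blood and liver development, likewise. At H2-K1, a class I histocompatibility gene, 1 WT and both KO libraries held a peak. The other region at Fam222a was held by all 4 DP libraries, and by all 8 fibroblast libraries.

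Tcf-1 summits were as sparse in segments as in single-mark stretches. There were 86 summits in 78 segments, or 9.10 per Mb (exact Poisson 95% interval 7.28 to 11.2, counting error only). H3K27me3-only stretches had 8.33 (7.94 to 8.74) and H3K9me3-only 7.62 (7.32 to 7.92), both within the interval of the segments, and the chromosomes as a whole 14.9. The deposited score, whose scale no source gives, had a median of 14.4 in segments, and 14.1 and 18.3 in the single-mark classes. The summit list carries the day 2 tag only, while the ATAC libraries set beside it carry both tags. Of the 86 summits, 65 (75.6%) lay in no ATAC peak of the 8 libraries, against 46.5% of all 40562 summits and 75.2% and 47.2% of those in H3K27me3-only and H3K9me3-only stretches. At 14 (16.3%) a peak was found with Tcf-1 RV alone, against 18.1% of all summits, and in all 4 libraries at 2 of them.

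The highest scores in segments were 126.5 at chr6:100473824 (a border, no protein-coding gene within 50 kb, open in 2 Tcf-1 RV libraries) and 105.2 at chr6:127555894, nested in H3K27me3 and 3862 bp from Cracr2a, a calcium channel regulator gene. Peaks covered that site in 2 libraries with Empty RV and in 3 with Tcf-1 RV. Most summits in 1 segment were 3, at chr11:32787201-32797600 inside H3K27me3, 22776 bp from Smim23. Another 6 segments had 2 each, among them those in Rasgef1a and Tmem232 and those 15312 bp from Ipp and 24227 bp from Ranbp6. The other sets of 2 lay with no protein-coding gene within 50 kb, at chr17:88350001-88358600 and chr1:92304001-92310200.

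Most segments held none of these features. In 2834 of 3136 (90.4%) there was no listed transcription start, no Tcf-1 summit and no ATAC region of either cell type. This share was not computed for single-mark or other stretches of like length. Short stretches hold few features in any case, so it describes the segments and is not shown to be particular to them.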

How the data were processed

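The authors deposited histone islands, ATAC peaks and Tcf-1 summits. Each deposited island carries the count of ChIP reads and the count of control reads, the ratio of both after scaling by 1 constant per library, and p-values, all with an adjusted p below 0.01 per the file values; SICER is named in the file names. The deposited Tcf-1 summits carry a score of unstated scale. The tools listed per the submitters' processing notes include Bowtie2 2.2.9, MACS2, Picard and Trim Galore, and the builds mm10, GRCm38 and GRCh37, without their roles. RefSeq gene tables were of GRCm38.p6, and the promoter windows held no starts of chromosome 18. Of the 18129 NIH3T3 regions in all 8 libraries outside that chromosome, 33.2% had a start within 200 bp, compared with 2.23% after starts were moved by 50 kb.

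Island ends were read as the last base of a 200 bp window. Islands were intersected in Python 3.11.15 with numpy 2.4.6 and pandas 2.3.3, and exact tests were tested on simulated data. Peaks were placed by midpoint, and peaks of the 8 NIH3T3 or the 4 DP libraries sharing 1 bp were merged into regions. Log2 density ratios had 0.5 peaks added to counts. Named were the 10 longest segments, the 15 genes with most segment bases, up to 4 genes per list by segment bases near their ends, segments with gained, lost or all-8 regions, and the 10 with most summits. The members and the lists were chosen with earlier results of these data known. Same-numbered NIH3T3 libraries deviated together from their arm means (r from 0.125 to 0.260 over regions). Differently numbered libraries of the same day tag did so too (r from 0.0648 to 0.194), while pairs across the tags had r from -0.0895 to -0.243. Within a tag, r was higher for the same number at Empty RV replicates 1, 3 and 4, but not at replicate 2 (0.189 against 0.194). Deviations cancel out within an arm, so positive r within the tags brings negative r across them. Shared deviation by tag and by number was not told apart, and the numbers are not shown to be pairs. DP numbers did not deviate together (r -0.0505). Labels do not say that replicates are separate cultures or animals, so p-values measure the spread between libraries. ATAC files give no read depth. The 300 bases of a promoter window were searched on both strands for CTTTGAT and CTTTGAA.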

Additional observations from a re-analysis of the deposited data

Results flagged for a closer look

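The density of ATAC peaks in segments relative to single-mark stretches differed between DP and NIH3T3 libraries, whose cell type, strain and list length cannot be told apart. On the log2 scale the DP value minus the NIH3T3 value was 0.72 against H3K27me3-only (exact permutation p = 0.0101 over 4 and 8 libraries) and 3.35 against H3K9me3-only (exact p = 0.00202, the smallest possible). With the WT libraries alone the first was 0.28 (exact permutation p = 0.222) and the second 3.06 (exact p = 0.0222).

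Within the DP libraries the WT and Tcf-1 KO ratios to H3K27me3-only lay on opposite sides of 1. The geometric mean was 0.897 in WT and 1.64 in KO, with both libraries of each arm on the same side. The difference was not tested, and the KO lists were shorter.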

How the results depend on the processing

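Of the recomputed values, 98 kept their direction and their side of the threshold or their size, 27 did not, and none reversed. The number of segments was 2029 with a minimum of 2 kb, 430 with 5 kb, 558 with a ratio of at least 2, 4853 from replicate 1 alone and 5329 from replicate 2 alone; without 1 histone library it was 3717 to 4566. Borders numbered 642 with a 5 kb flank. Genes with an end within 1 kb of a segment were 1.06% and genes overlapping one 2.45%. Summits above the median score numbered 3.91 per Mb. Gained regions were 11 within day 2 and 6 within day 4 tags, and 3 to 4 without 1 library; lost regions were 0 throughout.

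The ratio to H3K27me3-only was 0.930 with capped lengths, 0.862 without a minimum length, 0.689 in Empty RV, 0.789 in Tcf-1 RV, 0.744 on day 2, 0.731 on day 4 and 0.736 without the 2 shortest lists, none of which passed. That to H3K9me3-only was 0.257, 0.479, 0.256, 0.481 and 0.462 in the last 5. An exact test over 4 libraries cannot go below p = 0.125, and without the 2 shortest lists the adjusted exact p was 0.0625 for both ratios. Without 1 library the ratios were 0.694 to 0.758 and 0.326 to 0.421. The Tcf-1 RV minus Empty RV difference was 0.0161 to 0.0387 points without 1 library, and passed the threshold, among the libraries left out, only without Empty RV replicate 4. With the replicate block it was 0.0269 (exact sign-flip p = 0.125), and the DP difference 0.0305 (exact p = 0.5), neither call changed. With the replicate block over 4 numbers the class ratios were 0.738 and 0.351 and neither passed (exact p = 0.125). DP WT alone minus NIH3T3 was 0.28 on the log2 scale against H3K27me3-only and did not pass. Without 1 DP library the difference was 0.0202 to 0.0408 points. The alternatives on the pseudocount, the ends as written, the chromosome 14 segment, the shortest lists, the starts, the block over the class ratios and the DP arms alone were chosen after seeing the data. Peak lists without depth limit what absence of a peak means.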
